A study of Mus musculus with 2 samples.

Results

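A list of 10 genes of the meiotic programme was followed in germ cells of testes at postnatal day (PD) 7. The study lists early meiotic cells beside differentiating spermatogonia in its most advanced germ cell cluster, and these were not told apart here. The genes were Sycp1, Sycp3, Smc1b, Stag3, Rec8, Hormad1, Spo11, Dmc1, Prdm9 and Meioc, that is 10 of the 32285 genes in the count tables, taken by symbol, with no measured value in the rule. The question was which of them already gave transcripts at this age, and in which germ cells. The series held 2 single-cell RNA-seq libraries made on the 10x Genomics Chromium platform, 1 from control and 1 from Brca1 vKO testes, both at PD7 and made from 1 pair of male mice with no biological replicate. In the Brca1 vKO the Vasa-Cre transgene, which is active in germ cells from fetal life on, deletes a floxed Brca1 allele over a null one, so the deletion is in the germ line and the somatic cells of that testis carry 1 null allele only. Littermates served as controls, and their exact alleles are not given in the sources used here. With 1 library per genotype, genotype and library cannot be told apart and no test between genotypes was possible.

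Meiosis pairs and recombines homologous chromosomes along a proteinaceous axis. Cohesin rings with meiosis-specific subunits organise each chromosome into loops, the axis proteins and the synaptonemal complex are built on them, and a topoisomerase-like enzyme then cuts the DNA at sites chosen by a histone methyltransferase so that a meiotic recombinase can repair the breaks from the homologue. In the postnatal testis, spermatogonia first depend on GDNF signalling through GFRA1 and RET, and later, under retinoic acid, switch on KIT and STRA8 and become committed to meiosis. STRA8 with its partner MEIOSIN activates meiotic genes at entry, and complexes that contain E2F6, MGA, MAX and PCGF6 are known to repress many germline genes in other cells.

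The promoters are shown for 5 members with different patterns across stages, none of which makes, places or repairs the breaks. They are 300 bases of RefSeq sequence from GRCm38.p6, running from 250 bases before to 50 bases after the annotated start, and 9 of the 10 members had an entry. The first entry of each gene was taken, and its start need not be that of the gene span given below. The windows of Meioc, Prdm9 and Stag3 lie wholly within those spans, so they do not cover the outermost start. Capitals mark 3 motifs searched on both strands with earlier results of these data known, TCCCGC (an E2F-type core), CACGTG (an E-box) and CNCCTCAG (a motif reported for STRA8). The windows are chr3:102936051-102936350, minus strand for Sycp1, chr10:88459337-88459636, plus strand for Sycp3, chr3:95559427-95559726, plus strand for Hormad1, chr14:55617916-55618215, plus strand for Rec8 and chr11:102665335-102665634, plus strand for Meioc.
Sycp1: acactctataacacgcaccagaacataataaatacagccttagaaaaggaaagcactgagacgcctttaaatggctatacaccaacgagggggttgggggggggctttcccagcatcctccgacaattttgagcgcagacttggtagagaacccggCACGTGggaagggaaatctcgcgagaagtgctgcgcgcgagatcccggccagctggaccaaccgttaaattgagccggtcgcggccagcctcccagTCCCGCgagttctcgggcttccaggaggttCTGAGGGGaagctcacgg
Sycp3: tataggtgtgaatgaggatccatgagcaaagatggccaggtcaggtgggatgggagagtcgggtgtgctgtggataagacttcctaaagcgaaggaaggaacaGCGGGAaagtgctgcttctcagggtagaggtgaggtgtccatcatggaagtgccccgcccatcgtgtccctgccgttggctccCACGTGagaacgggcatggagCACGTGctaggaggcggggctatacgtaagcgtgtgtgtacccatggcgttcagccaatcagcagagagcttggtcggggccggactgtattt
Hormad1: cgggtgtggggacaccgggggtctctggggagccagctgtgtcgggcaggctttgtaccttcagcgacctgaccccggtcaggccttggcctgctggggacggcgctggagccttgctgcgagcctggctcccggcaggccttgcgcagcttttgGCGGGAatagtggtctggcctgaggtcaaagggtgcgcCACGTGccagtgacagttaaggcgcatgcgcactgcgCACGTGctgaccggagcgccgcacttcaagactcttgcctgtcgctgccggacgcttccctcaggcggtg
Rec8: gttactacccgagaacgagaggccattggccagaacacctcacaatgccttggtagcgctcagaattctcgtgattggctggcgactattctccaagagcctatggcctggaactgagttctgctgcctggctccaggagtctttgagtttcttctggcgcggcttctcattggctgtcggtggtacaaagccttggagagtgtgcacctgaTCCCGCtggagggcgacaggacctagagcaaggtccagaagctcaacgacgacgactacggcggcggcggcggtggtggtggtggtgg
Meioc: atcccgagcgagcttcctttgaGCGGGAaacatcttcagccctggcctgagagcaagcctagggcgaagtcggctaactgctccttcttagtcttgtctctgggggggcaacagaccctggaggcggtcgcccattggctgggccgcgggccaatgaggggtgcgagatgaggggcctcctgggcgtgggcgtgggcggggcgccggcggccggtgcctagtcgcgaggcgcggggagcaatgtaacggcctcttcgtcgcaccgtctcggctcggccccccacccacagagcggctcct
TCCCGC, in either orientation, was in 9 of 9 member promoters and in 5410 of the 27025 promoters of all genes. It was also in 19 of the 41 promoters found for other meiotic genes (46.3%) and in 3 of 3 found for the mitotic counterparts. CACGTG was in 4 of 9 (Sycp1, Sycp3, Stag3 and Hormad1) against 7.24% of all promoters, and CNCCTCAG was in 1 of 9 (Sycp1) against 7.97%. Rec8, Prdm9 and Meioc, the members past 2-fold between stages in the control, held TCCCGC and neither of the other motifs in these windows, and so did Smc1b and Dmc1, which were not past 2-fold.

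Germ cells were a cluster named from Ddx4, Dazl and 4 other germ markers, formed without the 10 members or the other meiotic genes, and held 1084 control and 277 vKO cells. Germ cells with at least 10000 UMIs (unique molecules) were split by the summed level of Gfra1 and Ret and by that of Kit and Stra8, each at 100 counts per 1000000 UMIs (CPM). This gave 256 control and 152 vKO cells high in Gfra1/Ret only, 221 and 9 high in Kit/Stra8 only, 77 and 50 high in both, and 145 and 15 low in both. The rest, 385 and 51 cells, had fewer than 10000 UMIs. The vKO Kit/Stra8 group has 9 cells, of which 6 had a gate level between 50 and 150 CPM, so its values are given with that limit. Sertoli cells, the somatic nurse cells named from Clu, Amhr2 and 5 other markers, gave the background in 2157 control and 4259 vKO cells.

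The libraries held 5812 and 9456 barcodes and 120568700 and 165062097 UMIs for control and vKO, and 21 barcodes occurred in both, none of them among the germ cells. Germ cells split by stage had median depths of 41848 to 50160 UMIs in the control and 23667 to 40995 in the vKO. Median Clu plus Amhr2 was 21.9 to 28.4 CPM in the control germ cell groups and 59.4 to 83.4 CPM in the vKO groups, against 2665 and 2852 CPM in Sertoli cells. Haemoglobin transcripts averaged 3578 CPM in the control Kit/Stra8 group and 132 CPM in the control Gfra1/Ret group. Among cells under 200 CPM of Clu plus Amhr2 and under 50 CPM of Dcn, the control ratios of Kit/Stra8 over Gfra1/Ret cells were 3.29 for Meioc, 3.31 for Prdm9 and 2.44 for Rec8, all still past 2-fold, and the part of the haemoglobin transcripts was not tested. Brca1 itself was at 70.7 CPM in control and 41.7 CPM in vKO Gfra1/Ret cells, and since counted reads may lie outside the deleted exons this is no check of the deletion. All intervals are 95% exact ones and cover counting error only, not the spread between mice.

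At PD7, 9 of the 10 genes were far above the Sertoli background in control germ cells. In the control, 9 of 10 were at least 4-fold higher in germ cells than in Sertoli cells, where 19.3% of all tested genes were, and in the vKO 8 of the 9 tested were, where 13.0% of all tested genes were. The median germ over Sertoli ratio was 81.8 over the members and 1.24 over all tested genes in the control. In Gfra1/Ret spermatogonia alone, the earliest stage here, 9 of 10 were past 4-fold in the control (15.0% of all tested genes) and 8 of 9 in the vKO (11.8%). Prdm9 was the exception, and Spo11 had too few UMIs to be counted in the vKO. TMM scaling shifted every control germ over Sertoli ratio by -0.54 on the log2 scale and changed no call among the members.

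**Figure D1:**
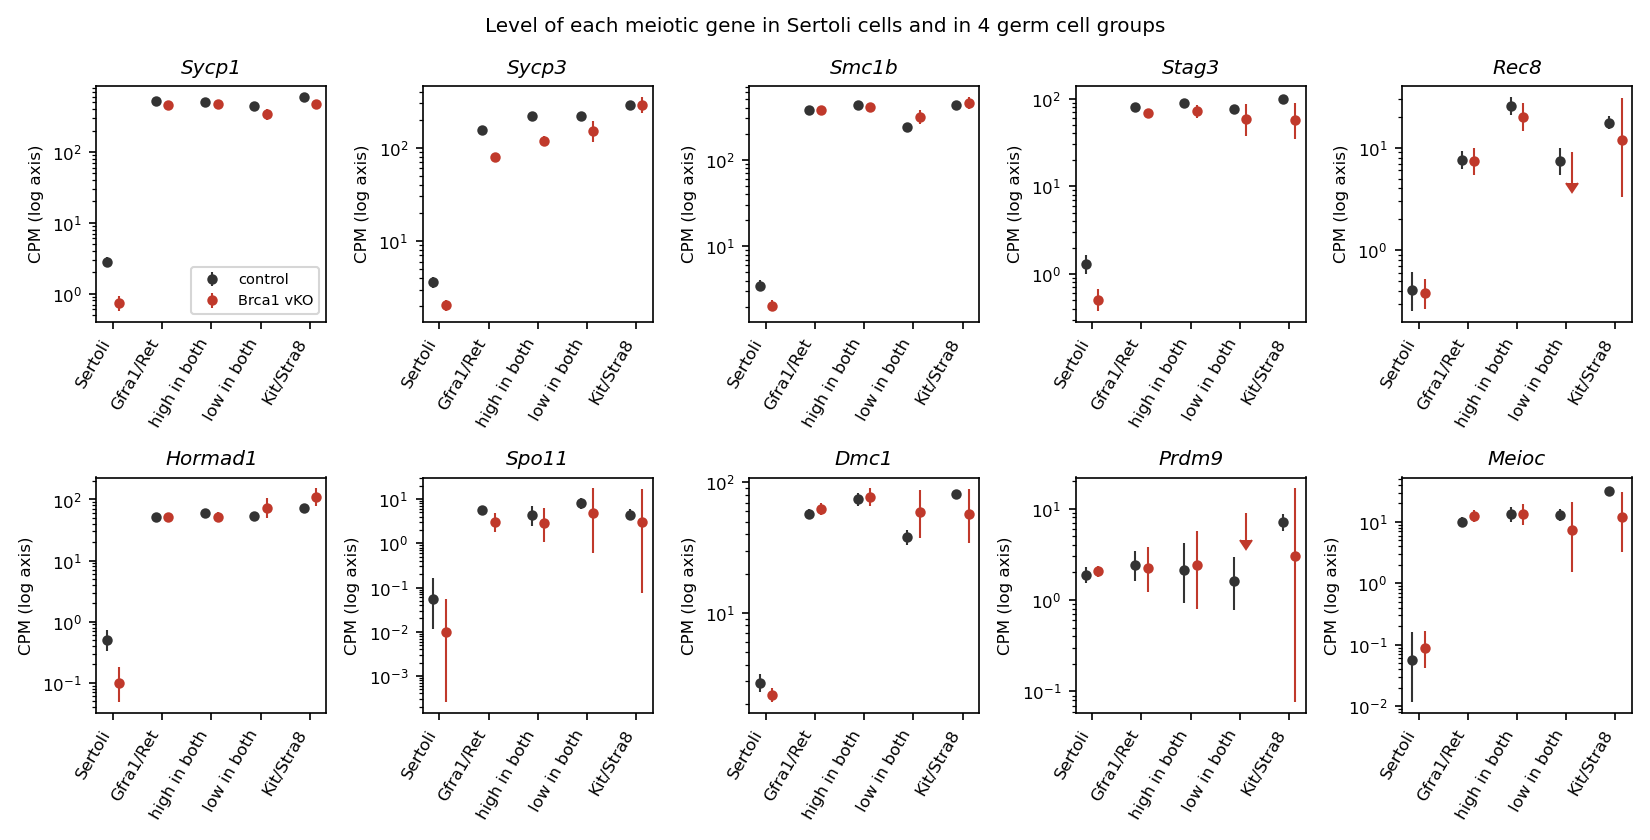
Level (CPM, log axis) of each of the 10 genes in Sertoli cells and the 4 staged germ cell groups, control and Brca1 vKO libraries, points with 95% Poisson bars and arrows for upper limits where no UMI was counted. Sycp1, for example, is at 2.80 CPM in control Sertoli cells and 444 to 586 CPM in the control germ cell groups, while Prdm9 lies at 1.61 to 7.09 CPM in them, against 1.89 CPM in Sertoli cells.

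Sycp1 encodes the transverse filament of the synaptonemal complex, the zipper between paired homologues (chr3:102818499-102936100, minus strand, 39 distinct exons, GRCm38). It was at 517 CPM (interval 504 to 530, 6222 UMIs) in control and 457 CPM in vKO Gfra1/Ret cells, against 2.80 and 0.728 CPM in Sertoli cells. Levels in the control were in the order Kit/Stra8 (586), Gfra1/Ret (517), high in both (498) and low in both (444), and the middle pair did not differ beyond counting error. The germ over Sertoli ratio was 183 (156 to 217) in the control and 621 (493 to 794) in the vKO. Sycp1 was present in nearly every germ cell of these stages, with 97.7% of control Gfra1/Ret cells and 98.6% of Kit/Stra8 cells holding a UMI after thinning to 10000 UMIs, against 2.21% of Sertoli cells.

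Sycp3 encodes a protein of the lateral axis, which is built on the cohesin rings (chr10:88459569-88473236, plus strand). It was at 155 CPM in control Gfra1/Ret cells and 80.4 CPM in the vKO, and at 290 and 288 CPM in Kit/Stra8 cells. Its exons overlap those of Chpt1 on the opposite strand, and whether counting used the strand is not given in the sources used here. In the control the order was Kit/Stra8, then high in both and low in both at 219 CPM each, then Gfra1/Ret, so that Sycp3 was 1.87 (1.77 to 1.98) times as high in Kit/Stra8 cells as in Gfra1/Ret cells. The cells with fewer than 10000 UMIs, whose median was 3192, had 352 CPM.

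Hormad1 encodes a HORMA-domain protein that marks unsynapsed axes (chr3:95559677-95587671, plus strand). In the control it was at 52.0 CPM in Gfra1/Ret, 53.8 in low-in-both, 59.2 in high-in-both and 72.6 CPM in Kit/Stra8 cells, where only Kit/Stra8 stood apart (1.23 times high in both, interval 1.06 to 1.43). In the vKO it was at 52.2 CPM in both Gfra1/Ret cells and cells high in both, and at 111 CPM (78.2 to 153) in the 9 Kit/Stra8 cells. Its Sertoli level was 0.501 CPM in the control and 0.0997 CPM in the vKO.

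Smc1b and Stag3 encode the meiotic forms of an SMC arm and of the SA/STAG subunit of the cohesin ring (chr15:85064689-85131964 on the minus strand and chr5:138280240-138312393 on the plus strand). Smc1b was at 374 CPM in control and 376 CPM in vKO Gfra1/Ret cells, and at 431 and 456 CPM in Kit/Stra8 cells. In the control the Kit/Stra8 level and that of cells high in both were not told apart (ratio 1.0, 0.945 to 1.06), and the level was lower in cells low in both, at 242 CPM or 0.646 (0.609 to 0.685) of the Gfra1/Ret level. Stag3 lay between 75.6 and 99.1 CPM in the control groups and between 57.0 and 71.3 CPM in the vKO groups.

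Rec8 encodes the meiotic kleisin, the ring-closing subunit that replaces RAD21 (chr14:55618037-55625395, plus strand, 25 distinct exons). It was at 7.65 CPM (92 UMIs) in control and 7.41 CPM (46 UMIs) in vKO Gfra1/Ret cells, at 17.5 and 12.0 CPM (198 and 4 UMIs) in Kit/Stra8 cells, and at 25.7 (20.8 to 31.4) CPM in control cells and 14.4 to 27.1 CPM (the interval of 41 UMIs) in vKO cells high in both. Cells low in both were at 7.42 CPM in the control and had 0 UMIs in the vKO, which allows up to 9.03 CPM. Of the control groups Rec8 was thus highest in the cells that carried both sets of stage genes, above the Kit/Stra8 group (Kit/Stra8 over high in both 0.682, 0.532 to 0.879), whereas in the vKO that pair was not told apart (0.600, 0.156 to 1.66). Against Gfra1/Ret cells, cells high in both were at 3.36 (2.50 to 4.53) times the Gfra1/Ret level in the control and 2.70 (1.73 to 4.2) times in the vKO. It was the only one of 9 tested members past 2-fold in that comparison in the control (0.796% of all tested genes) and the only one of 8 in the vKO (0.491%), and none was 2-fold lower (1.19% and 4.18%). Under the other filters, gates and scalings this Rec8 ratio ran from 1.89 to 3.72 in the control and from 1.36 to 5.12 in the vKO. The cells high in both differed in make-up between the libraries. Stra8 was at 100 CPM or more in 74 of 77 control and 28 of 50 vKO cells. Among all control cells at that Stra8 level, Rec8 was at 25.2 CPM with Gfra1/Ret high and 23.5 CPM with Gfra1/Ret low. Between cells low in both and Gfra1/Ret cells, 0 of 9 members in the control and 0 of 7 in the vKO were 2-fold higher (3.46% and 2.87% of all tested genes) or lower (4.16% and 12.7%). Against Sertoli cells the germ cell level was 31.3 (20.4 to 50.4) times higher in the control and 27.3 (18.6 to 40.9) in the vKO.

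Spo11 encodes the catalytic subunit that makes the programmed breaks (chr2:172977700-172993576, plus strand). It was at 5.57 CPM (67 UMIs) in control and 3.06 CPM (19 UMIs) in vKO Gfra1/Ret cells, with 3 and 1 UMIs in all Sertoli cells, a ratio of 97.6 (32.9 to 478) in the control. In contrast to the other members, its highest control level was in cells low in both, at 8.06 CPM, and the Kit/Stra8 level was 0.549 (0.364 to 0.830) of it. Against Gfra1/Ret cells the low-in-both level was 1.45 (0.983 to 2.12) times as high, within counting error.

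Dmc1 encodes the meiosis-specific recombinase (chr15:79561497-79605109, minus strand). It was at 57.4 and 62.4 CPM in control and vKO Gfra1/Ret cells, at 81.0 and 57.0 CPM in Kit/Stra8 cells and at 74.2 and 77.1 CPM in cells high in both. The control Kit/Stra8 and high-in-both levels did not differ beyond counting error (1.09, 0.953 to 1.25), and cells low in both were at 37.9 CPM. Dmc1 was also found outside the germ line, at 16.7 and 14.6 CPM in stromal cells and 14.1 and 13.4 CPM in peritubular myoid cells. The germ marker Dazl was at 10.5 CPM in control and 2.04 CPM in vKO stromal cells, while the vKO over control ratio of Dmc1 in stromal cells was 0.875 (0.754 to 1.02).

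Prdm9 encodes the zinc-finger methyltransferase that places the breaks (chr17:15543079-15564354, minus strand). Its germ cell level was 3.74 CPM in the control and 2.18 CPM in the vKO, against 1.89 and 2.05 CPM in Sertoli cells, ratios of 1.98 (1.51 to 2.59) and 1.06 (0.634 to 1.68). In Gfra1/Ret cells it could not be told from the Sertoli level (1.27, 0.812 to 1.94, in the control). Above background it was seen in control Kit/Stra8 cells, at 7.09 CPM (80 UMIs) or 3.74 (2.76 to 5.06) times the Sertoli level. The share of Kit/Stra8 cells with a UMI was 6.79% after thinning, against 2.34% of Gfra1/Ret cells and 1.89% of Sertoli cells.

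Meioc encodes a partner of YTHDC2 that holds germ cells in meiotic prophase (chr11:102663716-102682237, plus strand). It was at 10.1 CPM (121 UMIs) in control and 12.6 CPM (78 UMIs) in vKO Gfra1/Ret cells, against 0.0557 and 0.0897 CPM (3 and 9 UMIs) in Sertoli cells. In control Kit/Stra8 cells it was at 32.0 CPM (361 UMIs), and cells low in both and high in both were at 12.9 and 13.4 CPM. Meioc was thus above the Sertoli level already in Gfra1/Ret cells and higher in Kit/Stra8 cells, at 2.39 (1.77 to 3.28) times the level of cells high in both.

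Compared between the ends of the stage series, 3 of 10 members were at least 2-fold higher in Kit/Stra8 than in Gfra1/Ret cells of the control, Meioc (3.18, 2.58 to 3.94), Prdm9 (2.94, 1.90 to 4.66) and Rec8 (2.29, 1.78 to 2.97), where 8.07% of all tested genes were. None was 2-fold lower, where 7.62% of all tested genes were. The other ratios ran from 0.795 (0.540 to 1.16) for Spo11 to 1.87 for Sycp3, and the median was 1.40 over the members and 1.06 over all tested genes. In the vKO, 2 of 8 tested members were past 2-fold, Sycp3 (3.58, 2.85 to 4.46) and Hormad1 (2.13, 1.47 to 2.99), where 4.38% of all tested genes were higher and 12.8% lower; Meioc was at 0.954 (0.254 to 2.54) there. The vKO Hormad1 ratio ran from 1.10 to 2.46 under the alternatives and was under 2 with a mitochondrial limit of 5%, TMM scaling, doublets left out, a cut of 50 CPM, a mean over cells, stages from sub-clusters, and in cells low in Clu, Amhr2 and Dcn. The control count was 1 with a mitochondrial limit of 5%, where Rec8 was at 1.79 and Prdm9 had too few UMIs, and Rec8 was at 0.989 when Gfra1 alone was set against Kit alone and at 1.51 with stages from sub-clusters. Prdm9 was at 10.0 after the Sertoli level was subtracted, but the size of this ratio is not reliable. The Prdm9 level in control Gfra1/Ret cells, 2.41 CPM, was not told from the Sertoli level of 1.89 CPM.

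**Figure D2:**
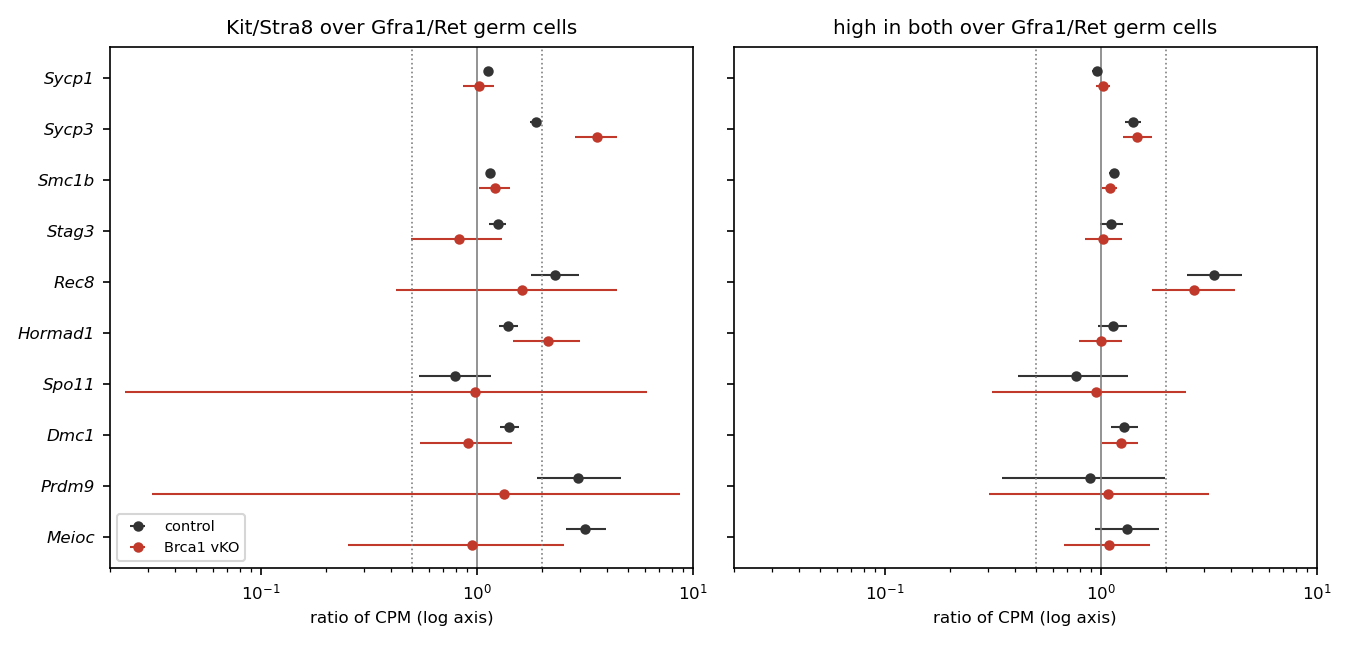
Ratio of summed levels (log axis) of each gene in Kit/Stra8 cells and in cells high in both, each over Gfra1/Ret cells, with 95% intervals, a line at 1 and dotted lines at 0.5 and 2. In the control Meioc, Prdm9 and Rec8 lie above 2 in Kit/Stra8 cells, and Rec8 lies above 2 in cells high in both in both libraries.

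Because Kit and Stra8 were summed in the gate, the cells were also divided by each gene on its own, a division chosen after the data were seen. Kit was divided at 50 CPM, and Stra8 into under 50 CPM and 100 CPM or more. Cells called with or without a gene are above or under these cuts, and those without may still hold some of its UMIs. Rec8 followed Stra8. Among control cells high in Gfra1/Ret it was at 6.27 CPM with Stra8 under 50 CPM (229 cells) and 25.2 CPM with Stra8 at 100 CPM or more (74 cells), a ratio of 4.01 (2.90 to 5.58). Among cells low in Gfra1/Ret the ratio was 4.09 (2.93 to 5.82), and among vKO cells high in Gfra1/Ret it was 3.33 (1.99 to 5.46), at 7.07 and 23.5 CPM in 156 and 28 cells. By Kit with Gfra1/Ret high and Stra8 low, the Rec8 ratio was 2.70 (0.713 to 7.25) in the control, with 6 Kit-high cells. In the vKO it was 0.857 (0.379 to 1.76), with 38 Kit-high cells. Among control cells low in Gfra1/Ret, those with Kit and without Stra8 had 2.29 CPM (5 UMIs in 48 cells), against 21.8 CPM in 108 cells with both. That is a ratio of 9.53 (3.98 to 29.8). Stag3 and Hormad1 were also higher with Stra8 in that comparison, by less. Stag3 was at 72.9 and 108 CPM (ratio 1.49) and Hormad1 at 52.7 and 79.3 CPM, both beyond counting error. By Kit with Gfra1/Ret and Stra8 low, their ratios were 0.948 and 0.942, within counting error. With Gfra1/Ret high, their Stra8 ratio was 1.15 each in the control, and 1.05 and 0.863 in the vKO.

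Meioc, Dmc1 and Prdm9 had another order. Among control cells low in both Gfra1/Ret and Stra8, Meioc was at 12.9 CPM without Kit and 31.6 CPM with Kit, a ratio of 2.44 (1.73 to 3.45), Dmc1 at 37.7 and 77.5 CPM, a ratio of 2.05 (1.67 to 2.53), and Prdm9 at 1.64 and 5.50 CPM, a ratio of 3.35 (1.30 to 9.01). They were also high in the 45 cells with Stra8 and without Kit, at 44.3 CPM (34.9 to 55.3) for Meioc, 67.8 CPM for Dmc1 and 10.9 CPM (6.57 to 17.1) for Prdm9. All 3 were thus lowest, among cells low in Gfra1/Ret, in those without either gene. By Stra8 alone, with Gfra1/Ret low, the ratios were 1.79 (1.45 to 2.21) for Meioc, 1.73 (1.52 to 1.97) for Dmc1 and 3.02 (1.83 to 5.21) for Prdm9. With Kit present, the Stra8-high over Stra8-low ratio held 1 within its interval for each of the 3. It was 0.929 (0.701 to 1.24) for Meioc, 1.15 (0.970 to 1.38) for Dmc1 and 1.37 (0.716 to 2.84) for Prdm9. Among control cells low in Gfra1/Ret and Stra8, Smc1b and Sycp1 were also higher with Kit. Their ratios were 1.88 (1.73 to 2.05) and 1.51 (1.41 to 1.61). With Kit present, the Stra8 ratio was 0.956 (0.888 to 1.03) for Smc1b, and Sycp1 was at 675 CPM without and 574 CPM with Stra8. By Kit, Sycp3 was at 1.23 (1.12 to 1.36) and Spo11 at 0.438 (0.178 to 0.936).

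With Gfra1/Ret high, Meioc was at 9.41 CPM without and 12.9 CPM with Stra8, and Prdm9 at 2.58 and 1.68 CPM, both within counting error, whereas Dmc1 was at 57.5 CPM without and 66.3 to 84.5 CPM (the interval of 268 UMIs) with Stra8, a ratio of 1.30 (1.13 to 1.51). In the vKO the Stra8 ratio there held 1 within its interval for all 3, Dmc1 included (0.988, 0.763 to 1.27). In vKO cells high in Gfra1/Ret and low in Stra8, the Kit-high over Kit-low ratio was 0.701 (0.372 to 1.24) for Meioc and 1.14 (0.913 to 1.41) for Dmc1. Prdm9 had 0 UMIs in 38 Kit-high cells and 14 UMIs in 118 Kit-low ones there. The matching control division had only 6 Kit-high cells, at 2.22 (0.707 to 5.37) for Meioc and 1.21 (0.701 to 1.96) for Dmc1. The vKO had 0 Kit-high cells low in Gfra1/Ret and Stra8. The Kit ratios could therefore not be compared between the libraries.

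**Figure D3:**
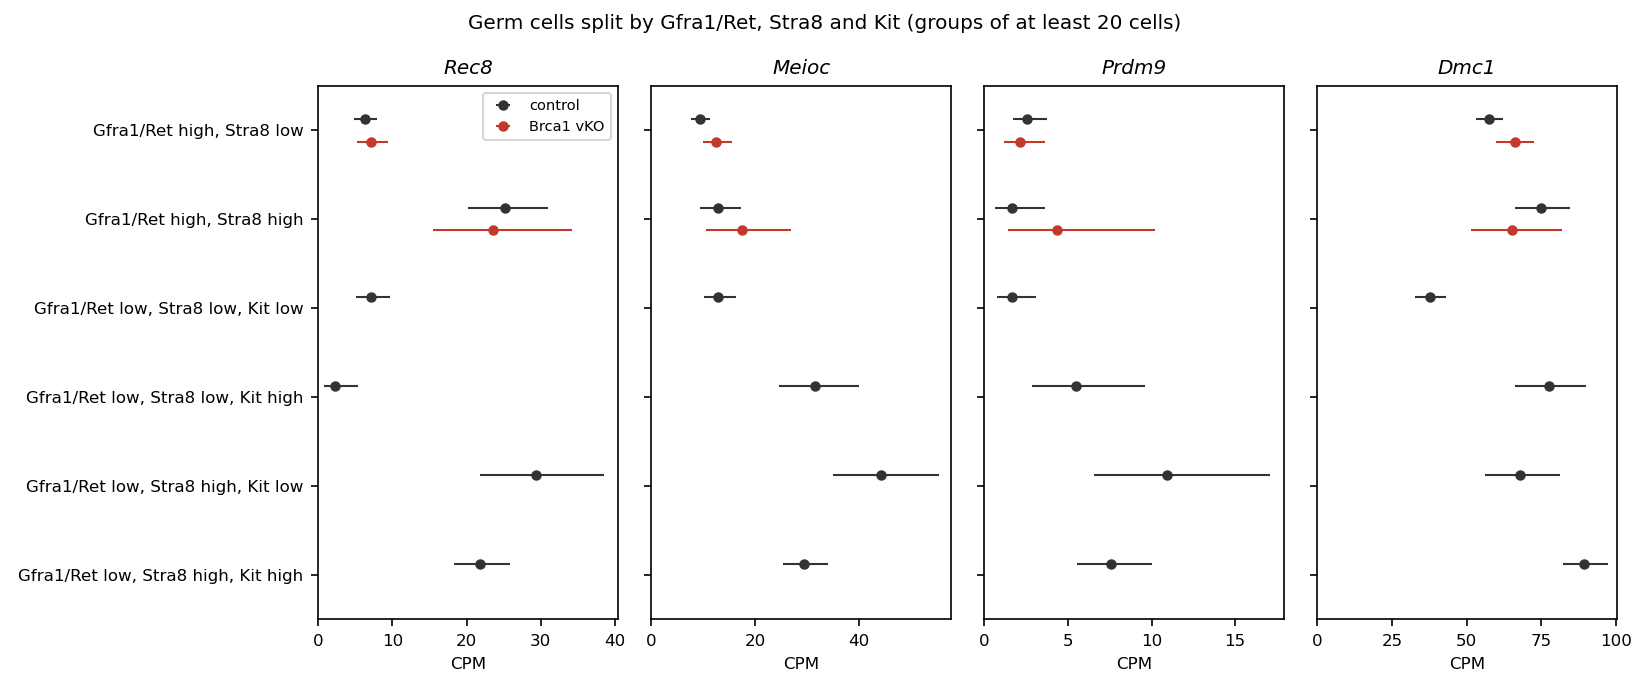
Level (CPM, points with 95% Poisson bars) of Rec8, Meioc, Prdm9 and Dmc1 in up to 6 subgroups of germ cells, of at least 20 cells each, divided by Gfra1/Ret, Stra8 and Kit. With or without a gene means above or under the cuts given in the text. Rec8 is at 21.8 to 29.3 CPM in each Stra8-high control subgroup and 2.29 to 7.11 CPM in each Stra8-low one, whereas Meioc in control cells low in Gfra1/Ret is 12.9 CPM without Kit and Stra8, 31.6 CPM with Kit alone, 44.3 CPM with Stra8 alone and 29.4 CPM with both.

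Seen cell by cell at equal depth, most germ cells held transcripts of several members at once. After thinning each cell to 10000 UMIs, a median of 4 of the 10 genes had a UMI in Gfra1/Ret cells of both libraries, 5 in control Kit/Stra8 cells and 4 in vKO ones, and 0 in Sertoli cells. At least 5 members were seen in 34.4% of control and 27.6% of vKO Gfra1/Ret cells, 61.1% and 44.4% of Kit/Stra8 cells and 61.0% and 40.0% of cells high in both. None of the thinned Sertoli cells had 5, and 87.8% and 90.9% had none. Thinning left out 257 of 2157 control and 518 of 4259 vKO Sertoli cells as too shallow. Rec8 had a UMI in 6.64% of control Gfra1/Ret cells, 15.8% of Kit/Stra8 cells and 20.8% of cells high in both after thinning, and in 24.2%, 43.4% and 63.6% before it, against 0.316% and 0.881% of Sertoli cells.

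**Figure D4:**
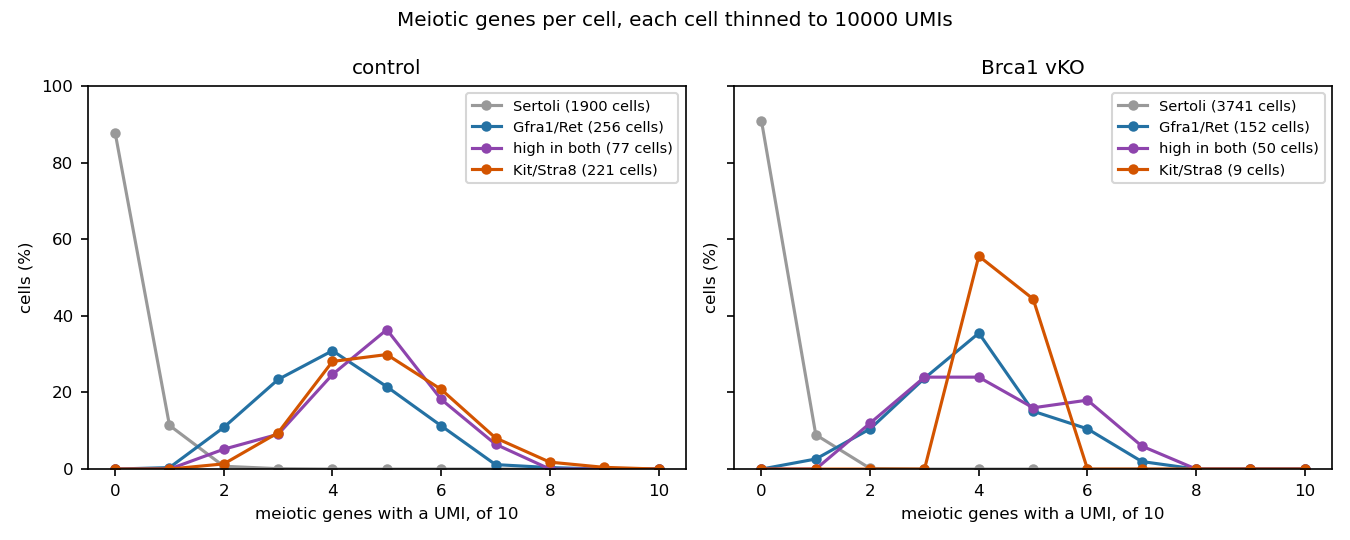
Percentage of cells (vertical axis) by the number of the 10 genes with at least 1 UMI (horizontal axis) after thinning to 10000 UMIs. Shown are Gfra1/Ret cells, cells high in both, Kit/Stra8 cells and Sertoli cells. Sertoli cells lie at 0 to 3 genes, and Gfra1/Ret cells are centred on 4.

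Between genotypes, no tested member was past 2-fold in Gfra1/Ret cells or in cells high in both. In Gfra1/Ret cells, 0 of 9 tested members were 2-fold higher (4.46% of all tested genes) and 0 of 9 were 2-fold lower (3.96%) in the vKO, with a median ratio of 0.969 against 1.0 over all tested genes. Sycp3 was the lowest, at 0.519 (0.469 to 0.573) of the control, followed by Spo11 at 0.550 (0.312 to 0.926), and Smc1b (1.0, 0.955 to 1.06), Hormad1 (1.01, 0.876 to 1.15) and Dmc1 (1.09, 0.956 to 1.23) were within counting error of 1. Spo11 was at 0.498, past 2-fold, among cells of at least 20000 UMIs. In cells high in both, Sycp3 was again lower, at 119 against 219 CPM (0.543, 0.469 to 0.628), and 0 of 8 tested members were past 2-fold (2.17% of all tested genes were higher and 4.52% lower). This group differed in make-up, as 74 of its 77 control and 28 of its 50 vKO cells had Stra8 at 100 CPM or more. Among Gfra1/Ret-high cells with Stra8 at 100 CPM or more, Sycp3 was at 133 CPM in the vKO and 224 CPM in the control. With Stra8 under 50 CPM it was at 77.9 CPM in the vKO and 152 CPM in the control. In Kit/Stra8 cells, with 9 vKO cells, Sycp3 was at 0.994 (0.803 to 1.22) and Meioc at 0.375 (0.102 to 0.969, 4 vKO UMIs). In cells low in both, Sycp3 was at 152 against 219 CPM (0.693, 0.528 to 0.894). Sycp3 was thus lower in the vKO in each stage group but Kit/Stra8. This compares 1 library with 1, with higher Sertoli marker levels in the vKO groups as given above, and with the Sertoli level subtracted Sycp3 was at 0.518 in Gfra1/Ret cells and 0.543 in cells high in both.

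The Sertoli background itself differed between libraries. It was lower in the vKO for Sycp1 (0.260, 0.194 to 0.346), Hormad1 (0.199, 0.0859 to 0.424), Stag3 (0.391, 0.267 to 0.569), Sycp3 (0.570, 0.466 to 0.698) and Smc1b (0.588, 0.481 to 0.720), and likewise for the germ markers Dazl (0.263, 0.224 to 0.309) and Ddx4 (0.335, 0.253 to 0.441). Prdm9 (1.08, 0.852 to 1.39) and Rec8 (0.928, 0.535 to 1.65) were not lower beyond counting error, and Dmc1 was at 0.807 (0.657 to 0.994). The Sertoli level was 50.6% of the germ cell level for Prdm9 in the control and 94.3% in the vKO, and 0.308% to 4.68% for the other members in the control.

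**Figure D5:**
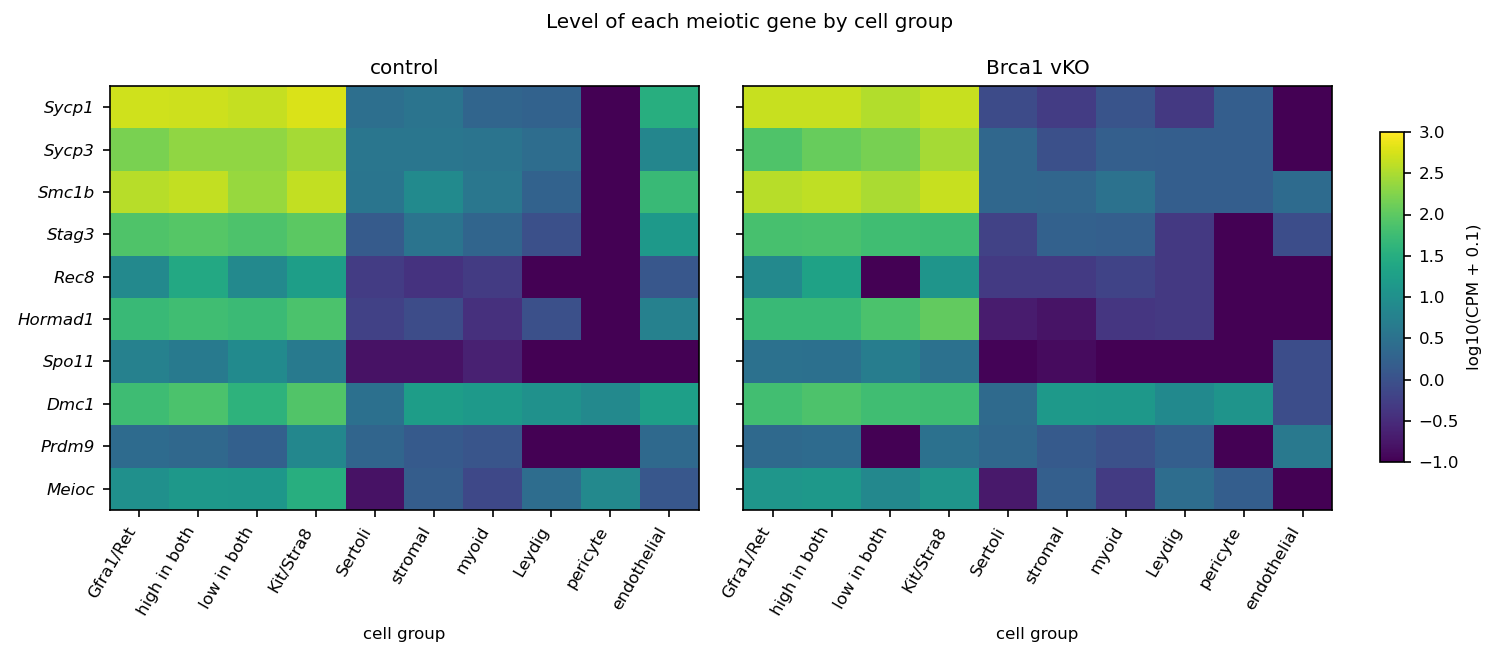
Heat map of log10(CPM + 0.1) of the 10 genes in 10 groups of cells. Sycp1, for example, is at 586 CPM in control Kit/Stra8 cells and 2.80 CPM in Sertoli cells, and Dmc1 shows a level of 14.1 to 16.7 CPM in control myoid and stromal cells.

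Among the other meiotic genes of a list of 54 matched symbols, 37 of 52 tested were at least 4-fold higher in control germ cells than in Sertoli cells (19.3% of all tested genes were). Between Kit/Stra8 and Gfra1/Ret cells 4 of 52 were at least 2-fold higher (8.07% of all tested genes) and 2 lower (7.62%), so the list did not stand above the background there. Mei1, a break factor, was at 34.3 against 11.4 CPM (3.01, 2.47 to 3.68), M1ap at 82.7 against 31.2 CPM, Top6bl, the partner of Spo11 listed as Gm960, at 20.4 against 8.15 CPM, and Tesmin at 6.11 against 2.83 CPM. Meiob, a single-stranded DNA binding protein, was at 0.974 against 3.57 CPM (0.273, 0.127 to 0.537), and Mcmdc2 at 3.72 against 9.64 CPM. The next smallest ratios were those of Hsf2bp (0.574), Mnd1 (0.578) and Msh4 (0.609), and Syce2, of the synaptonemal complex, was just short of 2-fold at 285 against 143 CPM. Control Sertoli cells were at 5.55 CPM for Mcmdc2, 23.8 CPM for Mnd1 and 2.02 CPM for Tesmin. For each of these genes that is above or near the lower stage level, so the size of its stage ratio is not reliable. The list genes named for their UMI level in Kit/Stra8 cells, which is not scaled to transcript length, were Tex15 (474 CPM), Tex14 (455 CPM), Syce2 (285 CPM), Tex11 (211 CPM) and Ankrd31 (204 CPM).

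The mitotic cohesin genes Smc1a, Smc3, Rad21, Stag1 and Stag2 hold sister chromatids together in dividing cells in general. None of these 5 was at least 4-fold higher in control germ cells than in Sertoli cells, where 19.3% of all tested genes were. Their ratios ran from 0.714 for Stag2 to 2.71 for Smc3. Between stages none was past 2-fold, where 8.07% of all tested genes were higher and 7.62% lower. Rad21, which Rec8 replaces, was at 236 CPM in Gfra1/Ret and 191 CPM in Kit/Stra8 cells (0.808, 0.764 to 0.855), and Smc3, which all cohesin rings share, at 551 and 345 CPM (0.626, 0.602 to 0.652).

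Of the 17 regulators, 8 were at least 4-fold higher in control germ cells than in Sertoli cells (19.3% of all tested genes). In Kit/Stra8 against Gfra1/Ret cells 3 were 2-fold higher (8.07% of all tested genes) and 2 lower (7.62%). One of the higher ones, Stra8, is a gate gene, and the others were Rbm46, an RNA-binding protein (279 against 106 CPM, 2.63), and Dnmt3b, a DNA methyltransferase (97.9 against 31.6 CPM, 3.10). Meiosin, the STRA8 partner, was at 8.42 against 4.49 CPM (1.87, 1.33 to 2.67), and Ythdc2, the MEIOC partner, at 54.3 against 39.0 CPM. Pcgf6, of the repressive complex that silences germline genes elsewhere, was at 33.0 against 104 CPM (0.315, 0.280 to 0.354), whereas its partners Mga (0.968), Max (0.887) and E2f6 (0.719) were not past 2-fold. Nanos2, a stem cell factor, had 76 UMIs in Gfra1/Ret cells and 0 in Kit/Stra8 cells. Dmrt1 (1.2), Zglp1 (1.64), Rarg (1.70), L3mbtl2 (1.29), Cbx3 (1.13), Dnmt1 (1.12) and Uhrf1 (1.01) lay between.

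The genes most like each member over 24 sums of cells by class and library, by Pearson correlation of log2(CPM + 10), are given as a description. Sycp1 was followed by Tex11 (r = 0.998), Smc1b and Stag3 by Sycp1 (0.996 each), Sycp3 by Henmt1 and Sohlh1 (0.994 each) and Hormad1 by Rbmxl2 (0.994). Rec8 had Ribc2 (0.945), Spo11 Pnma5 (0.972), Dmc1 Creld2 (0.964), Prdm9 Gm14023 (0.872) and Meioc Hdac1 (0.933). The sums share the 2 libraries, and germ against somatic cells sets most of each correlation.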

How the data were processed

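Cells of PD7 testes were digested, loaded on the 10x Genomics Chromium platform and sequenced on an MGI instrument. The authors deposited 1 table of raw UMI counts per library, made with Cell Ranger 6.0.2 on mm10 (per the submitters' processing notes, which also name R 4.2.3 and Seurat 4.3.0.1). The study's cell filter (750 genes or more, mitochondrial share no higher than 10%) had not yet been applied to the deposited counts. It was applied here and left 5077 control and 8712 vKO cells. Principal components of 2000 variable genes, without the members and the other meiotic genes, were corrected for library in a Harmony-type step and clustered at a resolution of 0.25 (igraph 0.11.9), and clusters were named from listed markers. Doublets were marked by Scrublet (scanpy 1.11.5) and kept, and their treatment in the study is not given in the sources used here. UMIs were summed per library and group and scaled to 1000000. With 1 library per genotype no test was made. Levels have exact Poisson intervals, ratios exact conditional ones and shares exact Clopper-Pearson ones (scipy 1.17.1), counting error only. Genes whose pair of sums reached 50 UMIs were counted past 4-fold (germ over Sertoli) or 2-fold. The fold counts were tested on simulated data. Alternatives were TMM scaling (edgeR 4.0.16), median-of-ratios scaling, other filters, gates and depths. The members were a fixed list and are all named. Of the other lists, the mitotic counterparts (1 of which is not reported here) and all regulators are named, and of the other meiotic genes the top 5 by level and the top 5 and bottom 5 by stage ratio. Members and lists were chosen with earlier results of these data known. Gene positions are from GENCODE on GRCm38, and motifs and promoters from RefSeq GRCm38.p6.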

Additional observations from a re-analysis of the deposited data

How the results depend on the processing

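The planned and added alternatives kept 144 counts and medians close to the value reported and moved 26, and among single ratios 587 kept, 84 moved and 3 reversed. No paired analysis was possible because each genotype has 1 library and the labels give no replicate numbers. With a mitochondrial limit of 5%, 1 member was 2-fold higher in Kit/Stra8 cells in each library, 0 other meiotic genes and 1 regulator were lower. In the vKO that member count was also 1, with Hormad1 under 2-fold, under TMM scaling, without doublets, at a cut of 50 CPM, with a mean over cells, and in cells low in Clu, Amhr2 and Dcn (added after the data were seen). With Gfra1 against Kit alone 1 vKO member was lower and control Rec8 was 0.989. A cut of 200 CPM gave 1 other meiotic gene lower and 5 regulators higher, and a minimum of 20000 UMIs gave 1 member 2-fold lower in vKO Gfra1/Ret cells. In divisions added after the data were seen, Rec8 was 0.323 by Kit among Stra8-low cells, where 1 member was 2-fold lower, and Prdm9 was 0.650 by Stra8 among Gfra1/Ret-high cells, where 1 member was higher. Median members per cell were, at 5000 UMIs, 3 in Gfra1/Ret cells of both libraries and vKO cells high in both and 4 in control Kit/Stra8 cells and cells high in both. Without thinning they were 6 in Gfra1/Ret cells of both libraries and in vKO Kit/Stra8 cells and cells high in both, and 7 in control Kit/Stra8 cells and cells high in both. Depth limits Spo11, Prdm9, Rec8 and Meioc in the 9 vKO Kit/Stra8 cells, which hold 1 to 4 UMIs of each.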

Other observations

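In the 27 control endothelial cells Smc1b was at 51.0 CPM (37.2 to 68.2, 45 UMIs), Sycp1 at 31.7 CPM and Dazl at 62.3 CPM, whereas the 36 vKO endothelial cells held 3, 0 and 1 UMIs of them. The control endothelial cells held 883156 UMIs at a median of 12758 per cell, and 1 endothelial cell of each library was marked as a doublet. How many of these cells held the germ cell transcripts was not examined. In Gfra1/Ret cells, regulators also differed between the libraries, with Uhrf1 at 214 CPM in the vKO against 115 CPM in the control (1.86, 1.72 to 2.01), Dnmt1 at 308 against 221 CPM (1.39, 1.31 to 1.47), Stra8 at 6.93 against 14.1 CPM (0.490, 0.342 to 0.689) and Meiosin at 1.77 against 4.49 CPM (0.395, 0.186 to 0.764). Stra8 is a gate gene, and genotype and library cannot be told apart.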
